A study of Arabidopsis thaliana with 12 samples.

Results

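Reads counted on genes and transposable elements (TEs) were compared between 3 *Arabidopsis thaliana* libraries of the *h1.1 h1.2 cdca7α cdca7β* quadruple mutant and 3 libraries whose count tables are named col, 6 of the 12 libraries of the series. The sample titles and the table names give the quadruple mutant libraries the same genotype, but they disagree on the other set. By table name the comparison is the quadruple mutant against wild-type Col-0. By sample title the same 3 libraries are *cdca7α cdca7β*, and the comparison is then the quadruple mutant against a mutant that already lacks both CDCA7 proteins and keeps linker histone H1. The sets are called here quadruple mutant and col-named, and no library was moved to another set on the basis of its values.

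All plants were in the Col-0 background, and the genotype field of the labels reads Col-0 for all 12 libraries. Each library was described as RNA from a single seedling, 14 days old, prepared with a stranded mRNA kit. The *h1.1* and *h1.2* mutations are T-DNA insertions, and the *cdca7α* and *cdca7β* mutations were made with CRISPR-Cas9. The remaining 6 libraries have tables named h1 (titled Col-0) and cdca7acdca7b (titled *h1.1 h1.2*), 3 of each. Nothing in the sources used here says whether the 3 seedlings of a set came from separate mother plants, so the p-values measure the spread between these seedlings, and a library of a whole seedling cannot tell fewer cells of a type from less RNA per cell.

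In plants, symmetric CG methylation is copied after each DNA replication by the methyltransferase MET1, guided by VIM proteins that recognise hemimethylated sites. In heterochromatin the linker histone H1 limits the access of these enzymes to nucleosomal DNA, and the chromatin remodeler DDM1 overcomes this barrier. CDCA7 proteins bind hemimethylated DNA and act with DDM1 and its animal counterpart HELLS. CG methylation keeps many TEs, pseudogenes and intergenic transcription units of the pericentromeres silent.

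The libraries held 25236235 to 39691515 reads, of which 1.56 to 1.89% were counted on genes and 0.368 to 0.468% on TEs. Gene reads numbered 679387, 582642 and 750749 in the col-named libraries and 450869, 462355 and 556326 in the quadruple mutant. The precision of each value is therefore limited by low counts, and the quadruple mutant was covered less deeply. Genes overlapped by a gene on the opposite strand made up 22.4% of the annotated genes and took 73.8 to 82.6% of the gene reads, and 5 housekeeping genes together had 9, 13 and 18 reads in the col-named and 13, 7 and 28 in the quadruple mutant libraries. The strand option of the counting is not stated in the sources used here, so values are given as reads counted on a feature, and the sense of the transcript behind them was not tested. Replicate 3 of the quadruple mutant stood apart, with 2.63% of its gene reads on organelle genes against 0.0543 to 0.0761% in the other 5 libraries. The mitochondrial gene ATMG00030 alone had 11425 reads there, against 129 to 281 in those 5. Summed reads of 10 leaf markers were 249, 199 and 327 in the col-named and 243, 165 and 297 in the quadruple mutant libraries, and as a share of gene reads the sets overlapped (exact two-sided permutation test, p = 0.3). Outside the comparison, cdca7acdca7b-named replicates 1 and 3 stood apart in these markers, with 10670 and 1696 reads against 158 in replicate 2. Both enter the joint fit, so the 10 markers were compared by their reads alone. Flower markers had 0 to 3 reads in each library, and the seed storage gene CRA1 (AT5G44120) had 25 reads in quadruple mutant replicate 3 and 0 in the other 5.

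Neither H1 gene had fewer reads in the quadruple mutant as a set, although both namings make them mutant there and intact in the col-named set. H1.1 (AT1G06760) was at 0, 0 and 0 reads in the col-named libraries and at 4, 6 and 5 in the mutant. For H1.2 (AT2G30620) the reads were 0, 1 and 2 against 7, 0 and 10, a log2 fold change of 2.66 (SE 1.27, edgeR adjusted p = 0.563). The sets overlapped for H1.2 and did not for H1.1. CDCA7α (AT4G37110) was at 3, 2 and 8 reads in the col-named libraries and at 0 in each quadruple mutant library, and CDCA7β (AT2G23530) was at 0, 1 and 0 reads against 0 in each. The sets did not overlap for CDCA7α and did for CDCA7β. A few reads per library do not check the labels, all the more since a T-DNA insertion or a small CRISPR lesion need not remove all reads of a gene.

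Of 35651 genes, 4461 had enough reads to be tested. In the quadruple mutant 17 genes were higher (0.381% of those tested) and 2 were lower (0.0448%) by edgeR's quasi-likelihood test in a joint fit of the 12 libraries, where a call took an adjusted p below 0.05 and a log2 fold change of 1 or more in either direction. Of 31189 TEs, 753 were tested, and 17 were higher (2.26%) and 1 was lower (0.133%). The median log2 fold change was 0.04 over all tested genes and -0.03 over all tested TEs, while it was 4.53 (1.42 to 9.30) over the 17 higher genes and 3.80 (1.88 to 10.80) over the 17 higher TEs. Both upper ends belong to features with 0 reads in every col-named library, AT5G26970 and AT1TE93275. There the size of the value depends on the method, and DESeq2 gave 8.74 and 10.24. The values of the sets were separate in all 17 higher genes, in 1 of the 2 lower genes and in 16 of the 17 higher TEs, where they were separate in 14.8% of all tested genes and 15.4% of all tested TEs. The number of higher genes depended on single libraries, and rose to 25 without cdca7acdca7b-named replicate 1, a library outside the comparison. It was 7 without col-named replicate 2, 8 without col-named replicate 3, 10 without quadruple mutant replicate 1 and 11 without quadruple mutant replicate 3, and it was 11 without h1-named replicate 2 and 10 without h1-named replicate 3, 2 libraries outside the comparison that enter the shared estimate of the spread, the scaling and the filter on low counts (5293 and 5348 genes tested without them). The number of lower genes ran from 0 to 4, with 4 without cdca7acdca7b-named replicate 1. Neither of the 2 lower genes was called without col-named replicate 1 or 2, without any 1 of the quadruple mutant replicates, or without h1-named replicate 1 or 3, although 1 other gene was called without col-named replicate 1 and 2 others without quadruple mutant replicate 2. One of the 2 was called without col-named replicate 3 and one without h1-named replicate 2. The number of higher TEs stayed within 12 to 19.

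**Figure D1:**
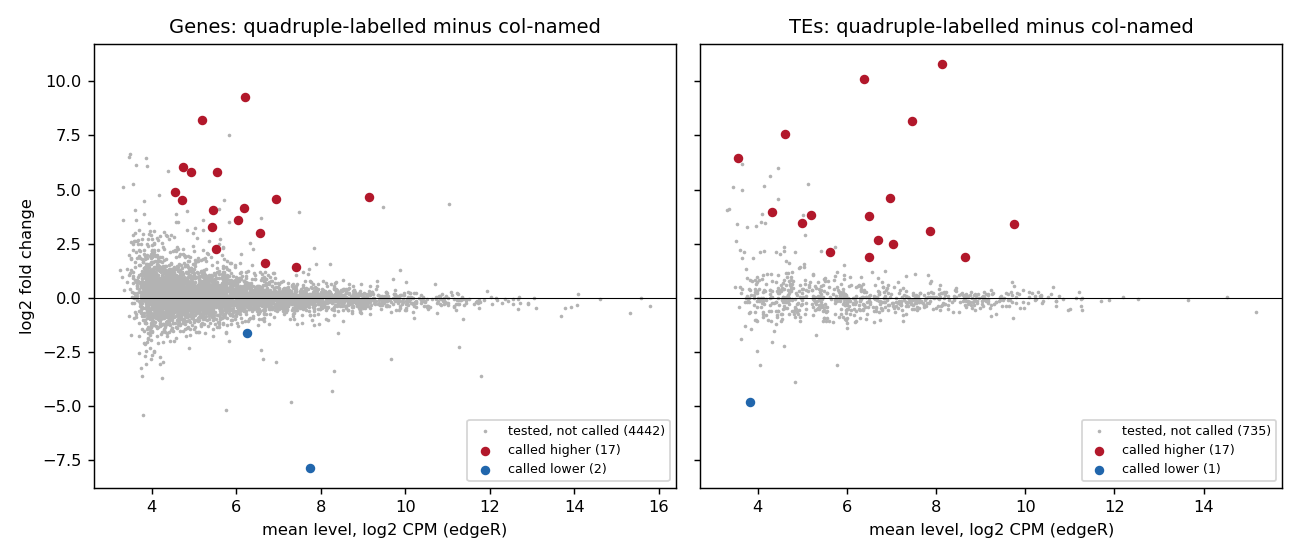
Log2 fold change of the quadruple mutant over the col-named libraries (y axis) against mean level in log2 CPM (x axis) for 4461 genes (left) and 753 TEs (right), 1 point per feature. Called features are coloured, and the 17 higher genes and 17 higher TEs reach log2 fold changes of 9.30 and 10.80 while most tested features lie near 0.

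Transcription units without a coding function took a larger share of the higher genes than of the tested genes. Long non-coding RNAs (lncRNAs) made up 6 of the 17 (35.3%, against 6.88% of the tested genes) and pseudogenes 3 of the 17 (against 1.34% of the tested genes), while 8 were annotated as protein coding (47.1%, against 90.8%). Of the 17, 4 started in a gene-poor 1-Mb stretch, defined as having fewer protein-coding genes than 0.5 times the median stretch of its chromosome (23.5%, against 3.21% of the tested genes). Genes overlapped on the opposite strand made up 8 of the 17 (47.1%, against 60.6%). These shares are descriptions of the called genes and were not tested.

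The largest difference was at AT5G26970, an uncharacterized protein-coding gene of 583 bp. It had 0, 0 and 0 reads in the col-named libraries and 56, 72 and 60 in the quadruple mutant, or 119, 158 and 107 CPM (reads scaled to library size with TMM factors). The sets were thus at 0 and at a similar level in every library. The quadruple mutant mean was 80.4-fold the col-named level when the col-named set is given 3 reads in all (log2 fold change 9.30, SE 0.738, edgeR adjusted p = 5.07e-05). Most of this locus has 1 other copy in the genome, of 91.4% identity, and the authors kept uniquely mapped reads. AT2G13430, also uncharacterized and 1371 bp long, had 2, 0 and 1 reads against 50, 60 and 36 (log2 fold change 5.82, SE 0.713, edgeR adjusted p = 0.000893). The pseudogene AT2G13431, which overlaps 695 bp of it on the opposite strand, had 0 reads in all 6 libraries. Both genes were called in each of the 12 fits that left out 1 library.

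The 300 bases around the annotated start of both genes are shown because they hold few of the CG sites that the CDCA7, DDM1 and MET1 machinery acts on. They run from 250 bases before to 50 bases after the start, 5′ to 3′ on the strand of the gene, from RefSeq TAIR10.1, with each CG in capitals. The search word was CG, which reads the same on both strands. AT5G26970 is on the minus strand at chr5:9486874-9487456 and its window is chr5:9487407-9487706. AT2G13430 is on the plus strand at chr2:5590052-5591422 and its window is chr2:5589802-5590101.
AT5G26970: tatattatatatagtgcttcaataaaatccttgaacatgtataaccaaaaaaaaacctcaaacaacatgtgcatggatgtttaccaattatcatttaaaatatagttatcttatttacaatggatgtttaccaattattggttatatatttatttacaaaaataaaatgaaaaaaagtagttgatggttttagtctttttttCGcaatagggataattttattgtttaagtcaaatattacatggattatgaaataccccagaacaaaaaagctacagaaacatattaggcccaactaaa
AT2G13430: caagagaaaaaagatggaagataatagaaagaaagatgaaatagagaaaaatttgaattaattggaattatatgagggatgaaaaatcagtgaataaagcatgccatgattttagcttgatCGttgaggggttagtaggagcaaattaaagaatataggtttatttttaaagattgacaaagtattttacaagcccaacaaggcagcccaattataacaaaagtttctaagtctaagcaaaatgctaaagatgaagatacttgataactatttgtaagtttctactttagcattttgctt

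Each of these windows held 1 CG, and 98.3% of the windows of 37878 annotated nuclear genes held at least as many. The other higher genes were not alike in this: over the 17 the count ran from 1 to 13, with a median of 6, the same as in the 4444 tested genes with a window and in all annotated genes. Over whole gene bodies the median was 3.02 CG per 100 bases in the 17 higher genes, against 2.71 in the tested and 2.53 in all genes. The bodies of AT5G26970 and AT2G13430 held 3.43 and 4.16 CG per 100 bases, above these medians. The low CG count was thus a trait of their start windows and not of their bodies.

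The lncRNAs were led by AT2G05705, a transcription unit of 280 bp in a gene-poor stretch of chromosome 2. It had 0, 0 and 0 reads in the col-named libraries and 28, 25 and 36 in the quadruple mutant, a mean 37.4-fold the level of 3 reads in the col-named set (log2 fold change 8.20, SE 0.893, edgeR adjusted p = 0.000893). Its level in the quadruple mutant, 59.6 ± 4.84 CPM (SD, n = 3), varied little between seedlings. AT3G25719, an uncharacterized protein-coding gene of 237 bp on chromosome 3, had 0, 0 and 1 reads against 38, 18 and 14 (log2 fold change 6.06, SE 0.827, edgeR adjusted p = 0.00219). The sets did not overlap in either gene. Both are short enough to print whole, to show how much they differ in CG content. They are given 5′ to 3′ on the minus strand from RefSeq TAIR10.1 with each CG in capitals, AT2G05705 from chr2:5021920-5022199 and AT3G25719 from chr3:9379916-9380152.
AT2G05705: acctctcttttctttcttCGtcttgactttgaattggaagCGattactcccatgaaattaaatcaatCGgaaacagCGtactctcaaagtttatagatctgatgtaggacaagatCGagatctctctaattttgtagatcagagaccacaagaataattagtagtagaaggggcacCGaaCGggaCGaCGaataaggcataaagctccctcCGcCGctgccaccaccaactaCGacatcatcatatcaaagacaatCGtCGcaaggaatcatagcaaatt
AT3G25719: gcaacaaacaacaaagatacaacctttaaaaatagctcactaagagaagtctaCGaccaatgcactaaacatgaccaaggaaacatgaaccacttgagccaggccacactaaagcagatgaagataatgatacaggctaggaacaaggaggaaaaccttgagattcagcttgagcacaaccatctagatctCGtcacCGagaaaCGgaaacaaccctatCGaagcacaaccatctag

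AT2G05705 holds 14 CG sites (5 per 100 bases) and AT3G25719 holds 5 (2.11 per 100 bases), so the strongest members span a range of CG content in their bodies as well as at their starts. AT2G05705 and AT3G25719 were called in each of the 12 fits that left out 1 library.

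The other 5 lncRNAs were at 0 to 9 reads in the col-named libraries, except for AT5G59662. AT5G03715 had 2, 3 and 4 reads against 43, 39 and 39 (log2 fold change 4.04, SE 0.633, edgeR adjusted p = 0.00672). It lies at chr5:8244584-8245112 wholly opposite AT5G24275, annotated as an En/Spm-like DNA transposon, on which no read was counted in the 12 libraries. AT2G05675, in a gene-poor stretch of chromosome 2, had 9, 1 and 1 reads against 31, 17 and 40 (log2 fold change 3.28, SE 0.627, edgeR adjusted p = 0.0278), and AT2G05665 opposite it also had none. AT2G08735 had 2, 0 and 1 reads against 16, 25 and 19 (log2 fold change 4.53, SE 0.848, edgeR adjusted p = 0.0278). All of these sets of libraries were separate, but the calls of the last 2 were less firm: without col-named replicate 3 the edgeR adjusted p was 0.222 for both, and it was 0.0754 for AT5G03715.

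AT3G06465, at chr3:14791174-14791781 in a gene-poor stretch, was the lncRNA whose level differed most between the other sets. It had 0, 2 and 1 reads in the col-named libraries and 17, 38 and 11 in the quadruple mutant (log2 fold change 4.66, SE 0.885, edgeR adjusted p = 0.0278, and 0.235 without col-named replicate 3). In the cdca7acdca7b-named libraries it had 1142, 1640 and 1098 reads and in the h1-named 5, 0 and 0, so the quadruple mutant, although above the col-named set, was far below the cdca7acdca7b-named set. A copy of 91.0% identity exists elsewhere in the genome. AT5G59662, the annotated antisense transcript of the receptor kinase gene AT5G59660, was measurable in every library, with 47, 24 and 35 reads against 81, 83 and 91 (log2 fold change 1.62, SE 0.295, edgeR adjusted p = 0.0239, and 0.214 without col-named replicate 3). AT5G59660 itself had 9, 5 and 8 against 16, 15 and 13 and was not called (log2 fold change 1.35, edgeR adjusted p = 0.535), and because the genes overlap over 838 bp the share of reads belonging to each is uncertain.

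All 3 pseudogenes were long, 4632 to 6504 bp, and had 0 to 16 reads in each col-named library. AT5G35935 (chr5:14083388-14089891) had 1, 0 and 0 reads against 18, 20 and 22 (log2 fold change 5.79, SE 0.721, edgeR adjusted p = 0.000893). AT4G04170 (chr4:2013697-2018328) had 4, 0 and 4 against 24, 18 and 36 (log2 fold change 3.58, SE 0.540, edgeR adjusted p = 0.00516). AT3G28915 (chr3:10917551-10922630) had 16, 2 and 0 against 101, 92 and 154 (log2 fold change 4.56, SE 0.790, edgeR adjusted p = 0.0164). The col-named libraries differed among themselves in AT3G28915, yet the highest of them was well below the lowest quadruple mutant library. Without col-named replicate 2 its edgeR adjusted p was 0.166, whereas AT5G35935 and AT4G04170 were called in each of the 12 fits that left out 1 library. AT5G39770, counted above as protein coding, is described in the annotation as a nonfunctional pseudogene related to MUS81, a nuclease of DNA repair. It had 0, 1 and 2 reads against 23, 30 and 25 (log2 fold change 4.90, SE 0.715, edgeR adjusted p = 0.00407), and it too was called in each of those fits.

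Of the 8 protein-coding genes, 4 carry an annotated function, with log2 fold changes of 1.42 to 4.16. AT5G42490, a kinesin-like microtubule motor, had 23, 8 and 3 reads against 67, 63 and 87 (log2 fold change 2.98, SE 0.477, edgeR adjusted p = 0.00788). ARC6, a chloroplast division gene that overlaps its end by 517 bp, had 0 to 2 reads in each library. AT3G26240, which encodes a cysteine- and histidine-rich C1 domain protein, had 17, 10 and 7 against 53, 30 and 49 (log2 fold change 2.26, SE 0.436, edgeR adjusted p = 0.0292), and AT1G68110, an ENTH/ANTH domain protein of the kind that takes part in clathrin-coated vesicle formation, had 60, 45 and 51 against 119, 110 and 100 (log2 fold change 1.42, SE 0.258, edgeR adjusted p = 0.0239). Every quadruple mutant library was above every col-named library in these 3 genes. AT4G14100, annotated as a glycosyl transferase, had 4, 1 and 7 reads against 110, 6 and 54, with quadruple mutant replicate 2 within the range of the col-named reads although above it in CPM (13.1 against 1.98 to 9.58; log2 fold change 4.16, SE 0.824, edgeR adjusted p = 0.0338). Its neighbour AT4G14090, which overlaps it by 230 bp, had 263, 243 and 298 against 257, 268 and 267 and was not called (edgeR adjusted p = 0.668). With 1 library left out, the highest edgeR adjusted p was 0.124 for AT5G42490 and 0.240 for AT4G14100 (without col-named replicate 2), and 0.233 for AT3G26240 and 0.218 for AT1G68110 (without col-named replicate 3).

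**Figure D2:**
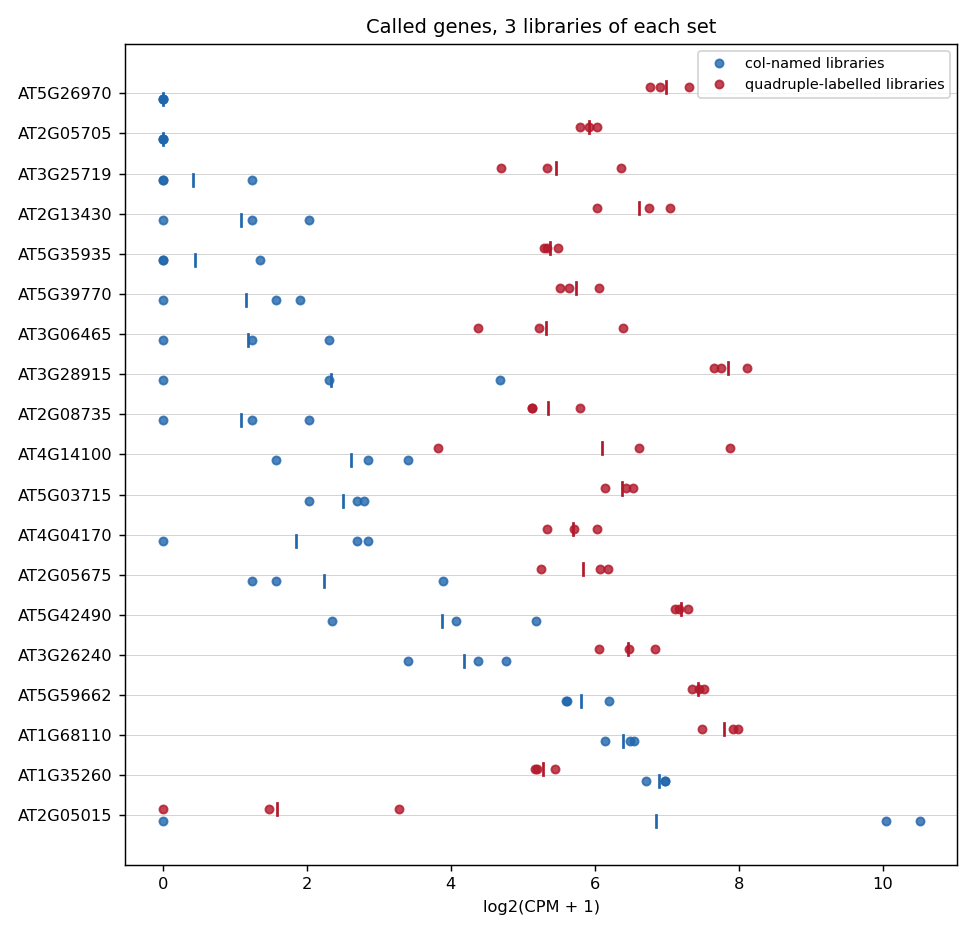
Level of the 19 called genes in the 3 col-named (blue) and 3 quadruple mutant (red) libraries, as log2(CPM + 1). Each point is a library and each tick the mean of a set, and the sets are separate in every gene but AT2G05015, at the bottom, where col-named replicate 3 lies with the quadruple mutant.

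Both lower genes depended on single libraries. AT2G05015, a lncRNA in a gene-poor stretch (chr2:2753377-2754065), had 682, 736 and 0 reads in the col-named libraries and 0, 4 and 1 in the quadruple mutant (log2 fold change -7.86, SE 1.56, edgeR adjusted p = 0.0338). It was high in col-named replicates 1 and 2 only, and replicate 3 lay with the quadruple mutant, so the sets overlapped. Its edgeR adjusted p was 0.245 without quadruple mutant replicate 3. AT1G35260 encodes MLP165, a member of the major latex protein family. It had 67, 63 and 91 reads against 20, 16 and 20, or 103, 125 and 125 CPM against 42.6, 35.0 and 35.8 (log2 fold change -1.63, SE 0.309, edgeR adjusted p = 0.0278, and 0.214 without col-named replicate 3). Here every quadruple mutant seedling was below every col-named seedling.

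Among the TEs, 5 went from at most 1 read in each col-named library to a higher count in each quadruple mutant library. AT1TE93275 had 0, 0 and 0 reads against 155, 147 and 241, a mean 227-fold the level of 3 reads in the col-named set (log2 fold change 10.80, SE 0.534, edgeR adjusted p = 3.48e-09). AT3TE62100 had 0, 0 and 0 against 122, 146 and 48, a mean 139-fold that level (log2 fold change 10.09, SE 0.904, edgeR adjusted p = 5.95e-06). AT4TE17660 had 1, 0 and 1 against 208, 83 and 263 (log2 fold change 8.18, SE 0.898, edgeR adjusted p = 1.87e-05). In these 3 elements the 3 quadruple mutant seedlings were all above every col-named seedling. The remaining pair were weaker and less even. AT4TE18500 had 0, 0 and 0 against 2, 28 and 27, a mean 23.8-fold the level of 3 reads in the col-named set (log2 fold change 7.56, SE 1.51, edgeR adjusted p = 0.00954). Its quadruple mutant replicate 1, at 4.26 CPM, was near the floor. AT3TE73260 had 0, 0 and 0 against 10, 6 and 10 (log2 fold change 6.44, SE 1.33, edgeR adjusted p = 0.0113). AT3TE73260 was the only 1 of the 5 to lose its call when a library was left out (edgeR adjusted p = 0.0587 without col-named replicate 2). Neither AT4TE18500 nor AT3TE73260 passed the low-count filter when only the 6 libraries compared were fitted. The table gives neither family nor position of a TE, and TE positions were not analysed here.

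Some called TEs were next to each other in the table. AT5TE46155 had 19, 26 and 12 reads against 128, 111 and 167 (log2 fold change 3.10, SE 0.410, edgeR adjusted p = 0.000173), and AT5TE46160, the next entry, had 2, 4 and 0 against 31, 15 and 28 (log2 fold change 3.83, SE 0.755, edgeR adjusted p = 0.00846). AT5TE46165, the entry after that, had 90, 57 and 54 against 193, 162 and 240 (log2 fold change 1.88, SE 0.282, edgeR adjusted p = 0.000686). These 3 consecutive entries therefore rose together, with no overlap between the sets, although from very different levels. AT5TE46170, which follows, had no reads, and AT5TE46175 had 18, 15 and 13 against 10, 13 and 18 and was not called. AT5TE48715 had 12, 0 and 12 against 112, 81 and 59 (log2 fold change 3.80, SE 0.582, edgeR adjusted p = 0.000739), and its neighbour AT5TE48720 had 1, 0 and 3 against 30, 6 and 16 (log2 fold change 3.96, SE 0.825, edgeR adjusted p = 0.00954, and 0.0945 without quadruple mutant replicate 1). Among the 120 uncalled entries within 4 places of a called TE, 107 had 0 reads in the 6 libraries, and the highest total was 87 reads.

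One called TE and one called pseudogene were counted from largely the same reads. AT3TE45385 had 16, 2 and 0 reads against 103, 93 and 160 (log2 fold change 4.60, SE 0.775, edgeR adjusted p = 0.00172), and its counts differed from those of AT3G28915 by at most 6 reads in any of the 12 libraries. They are a single observation that entered both tables. AT2TE19615 had 2, 5 and 3 reads against 23, 30 and 36 (log2 fold change 3.43, SE 0.548, edgeR adjusted p = 0.00106), and AT5TE29800 had 4, 3 and 0 against 15, 20 and 31 (log2 fold change 3.46, SE 0.714, edgeR adjusted p = 0.00954, and 0.0606 without quadruple mutant replicate 3). The sets did not overlap in these elements.

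The 4 remaining higher TEs were already counted in every col-named library. AT1TE71770 had 19, 29 and 7 reads against 130, 41 and 85 (log2 fold change 2.47, SE 0.506, edgeR adjusted p = 0.00954), and AT2TE31290 had 6, 8 and 14 against 21, 20 and 58 (log2 fold change 2.11, SE 0.478, edgeR adjusted p = 0.0188). AT2TE41840 had 32, 15 and 21 against 73, 37 and 93 (log2 fold change 1.90, SE 0.385, edgeR adjusted p = 0.00954). Their sets did not overlap, but each lost its call in some fit without 1 library, where the highest edgeR adjusted p was 0.0724 without quadruple mutant replicate 1 for AT1TE71770, and 0.170 and 0.0616 without quadruple mutant replicate 3 for AT2TE31290 and AT2TE41840. AT1TE89775 was the least certain, with 18, 18 and 7 reads against 15, 63 and 157 (log2 fold change 2.66, SE 0.676, edgeR adjusted p = 0.0465). Quadruple mutant replicate 1 lay within the col-named range in CPM, and the call held in 3 of the 12 fits without 1 library (edgeR adjusted p = 0.289 without quadruple mutant replicate 3). The only lower TE, AT1TE63795, had 15, 19 and 11 reads against 0, 1 and 0 (log2 fold change -4.84, SE 1.11, edgeR adjusted p = 0.0194, and 0.123 without quadruple mutant replicate 3), with no overlap.

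**Figure D3:**
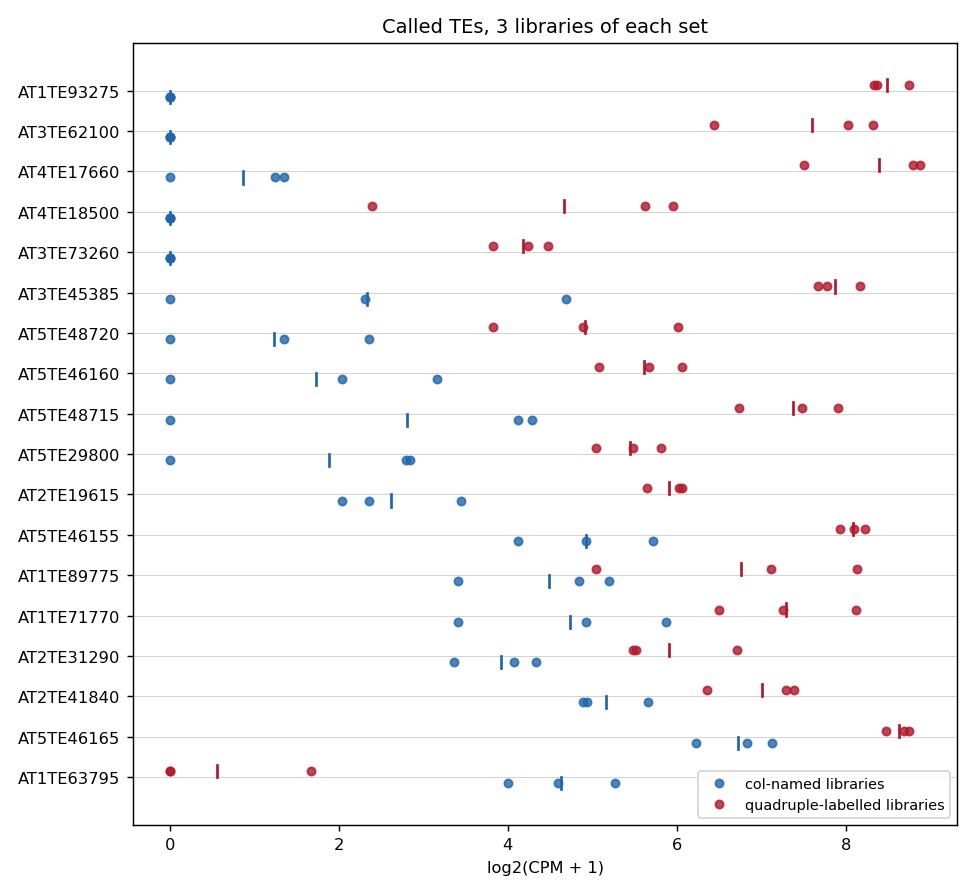
Level of the 18 called TEs in the 3 col-named (blue) and 3 quadruple mutant (red) libraries, as log2(CPM + 1), with each point a library and each tick the mean of a set. AT1TE93275 and AT3TE62100 go from 0 in every col-named library to the highest part of the plot, and AT1TE89775 is the element whose sets overlap.

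The higher TEs were few against a TE total that did not differ detectably between the sets. TE reads per 100 gene reads came to 24.8 ± 1.12 for the quadruple mutant and 24.9 ± 2.89 for the col-named libraries (SD, n = 3 each; difference -0.0672, exact two-sided permutation test, p = 1, where the smallest p that 3 against 3 allows is 0.1). The difference took the opposite sign, 0.141, with organelle genes left out of the gene reads, 1.51 without col-named replicate 2 and 0.544 without quadruple mutant replicate 3. By the chromosome number in their names, 3 of 164 tested TEs were higher on chromosome 1, 3 of 135 on chromosome 2, 3 of 145 on chromosome 3, 2 of 105 on chromosome 4 and 6 of 204 on chromosome 5. Most of those on chromosome 5 were the neighbouring entries described above, which need not be separate observations.

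A few more features were at 0 reads in 1 set and at 5 or more in each library of the other without reaching the threshold. The search covered all 35651 genes and 31189 TEs, without the low-count filter. In that sense 7 genes and 3 TEs, a very small share of these, were absent from the col-named counts and present in the quadruple mutant. The called ones were AT5G26970, AT2G05705, AT1TE93275, AT3TE62100 and AT3TE73260. The uncalled ones were AT2G08045 (9, 9 and 12 reads in the quadruple mutant), AT2G12550 (10, 9 and 8), AT3G23900 (8, 6 and 7), AT3G26235 (5, 6 and 10) and AT5G28773 (13, 6 and 7). The opposite pattern was found in no gene and in 1 TE, AT2TE09245, with 7, 13 and 9 reads in the col-named libraries. The difference between the patterns was not tested. These features were named after their values were seen. A count of 0 in a library allows up to 3 reads, so these levels were not detectable with the reads counted rather than shown to be absent.

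In mean CPM, the h1-named set was above the col-named set in all 17 higher genes. It was also above it in the higher TEs, except AT1TE89775 (18.6 against 24.3). In AT2G05705 it was near the quadruple mutant (61.3 against 59.6 CPM). The calls were made on the col-named values, so this is no separate support for them. Beyond this, the levels in the 6 other libraries differed between features. They are given side by side because 2 namings exist for them too. AT5G26970 had 104, 116 and 118 reads in the h1-named and 0, 1 and 0 in the cdca7acdca7b-named libraries, and AT3TE62100 had 89, 87 and 50 against 2, 1 and 1, so in these the h1-named set was high with the quadruple mutant and the cdca7acdca7b-named set was low with the col-named. AT4TE17660 had 7, 14 and 7 reads in the h1-named and 152, 336 and 49 in the cdca7acdca7b-named libraries, and AT4G04170 had 5, 5 and 3 against 86, 91 and 170, the reverse arrangement. AT1TE93275 had 321, 373 and 242 reads and 203, 197 and 185, and AT5G35935 had 27, 40 and 19 and 14, 22 and 17, high in all 9 libraries outside the col-named set. AT2TE19615 had 19, 9 and 2 reads in the h1-named and 2357, 1901 and 1674 in the cdca7acdca7b-named libraries, or 3347 ± 738 CPM (SD, n = 3) in the latter against 59.7 ± 9.27 CPM in the quadruple mutant. It shared with AT3G06465 a level in the quadruple mutant that was above the col-named and far below the cdca7acdca7b-named set. By title, the h1-named libraries are Col-0 and the cdca7acdca7b-named libraries *h1.1 h1.2*, so each of these statements names a different genotype under the other naming, and these differences were not tested here.

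**Figure D4:**
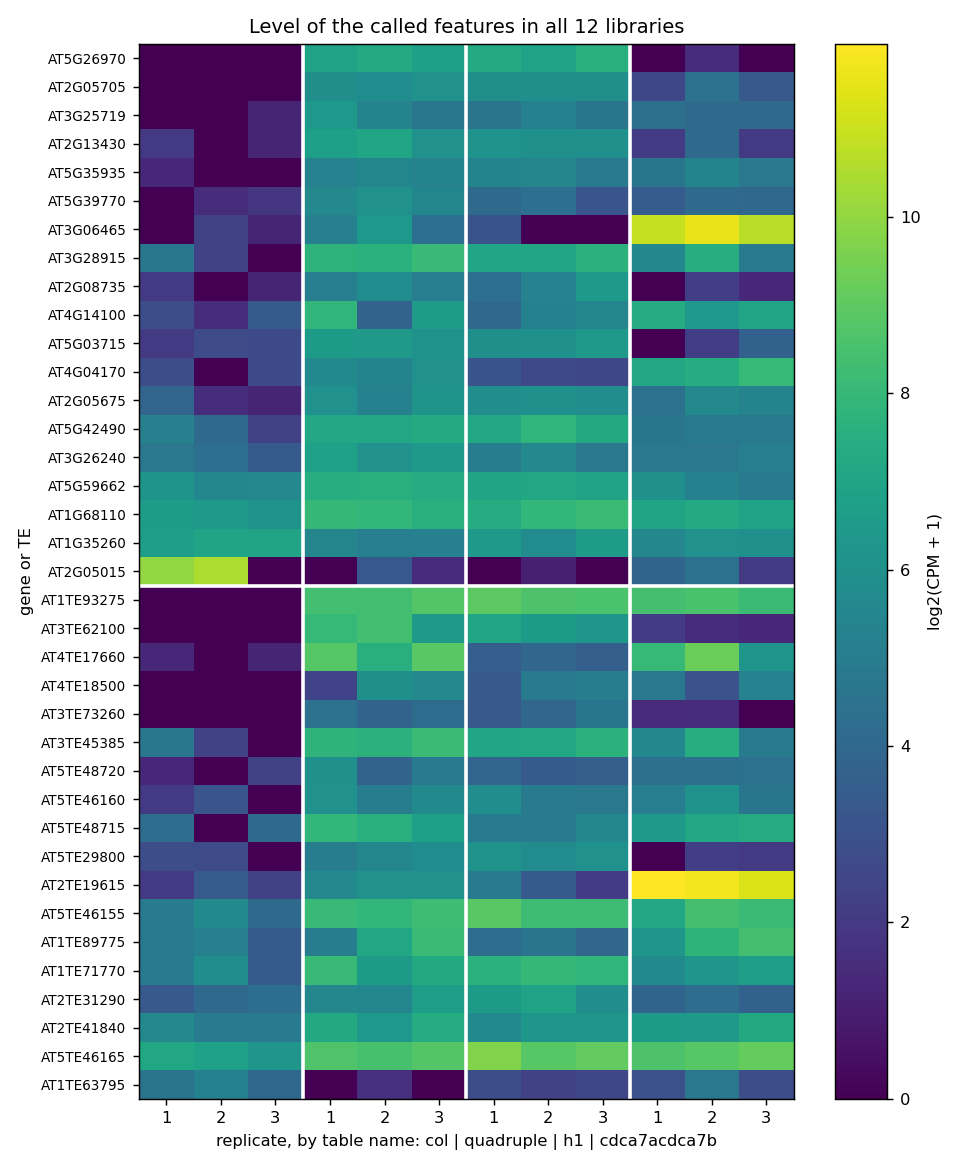
Level of the 37 called features in all 12 libraries, as log2(CPM + 1) by colour, with 1 row per gene or TE and 1 column per library in sets of 3 named by their tables. AT5G26970 is high in the quadruple and h1 columns, AT4G04170 in the quadruple and cdca7acdca7b columns, and AT1TE93275 in all but the col columns.

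None of the genes that run DNA methylation was called, and few had enough reads to be tested. The 5 genes of CG methylation maintenance (MET1, VIM1, VIM2, VIM3 and DDM1) had 2, 1 and 7 reads in all in the col-named and 3, 6 and 5 in the quadruple mutant libraries, and none of the 5 was tested. None of 6 genes of non-CG methylation, 4 DNA demethylases, 10 silencing factors and heterochromatic histones, 5 other genes of the CDCA7-type zinc finger family, 6 DNA damage response genes and 5 defence genes was tested either. Of 20 genes of RNA-directed DNA methylation, which is guided by small RNAs, 1 was tested, the remodeler CLSY1 (AT3G42670), with 12, 15 and 22 reads against 22, 8 and 27 (log2 fold change 0.53, edgeR adjusted p = 0.855). The sets overlapped in CLSY1. With so few reads counted on them, a difference in these genes was not detectable. Of all reads in a library, 1.56 to 1.89% were counted on genes, so low counts here do not measure low expression.

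Genes known as targets of this silencing and a list of mobile TEs had few reads as well. The 5 genes known to be silenced by DNA methylation had 0, 10 and 6 reads in all in the col-named and 8, 5 and 10 in the quadruple mutant libraries, and none was tested. The 10 mobile TEs were mostly copies of ONSEN, an element that responds to heat, together with EVD and Hiun. Of the 10, 6 had 0 reads in all 6 libraries, EVD and Hiun among them. The 2 that were tested were both ONSEN copies, so they do not stand for TEs controlled by methylation alone. The heat-responsive ONSEN copy AT1TE12295 had 41, 19 and 41 reads against 23, 22 and 40 (log2 fold change 0.10), and the ONSEN copy AT5TE15240 had 23, 31 and 33 against 24, 11 and 22 (log2 fold change -0.30). Neither was called by edgeR (lowest unadjusted p = 0.523), and the sets overlapped in both.

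Heat shock genes and clock genes were compared because their levels follow temperature and time of harvest. Heat shock genes together had 45, 36 and 51 reads in the col-named and 22, 14 and 19 in the quadruple mutant libraries, nearly all of them on the chaperone gene HSP101 (AT1G74310), which had 45, 34 and 51 against 22, 14 and 15 (log2 fold change -0.99, SE 0.385, edgeR adjusted p = 0.433, unadjusted 0.0215). As a share of gene reads the sets did not overlap (exact two-sided permutation test, p = 0.1, the smallest that 3 against 3 allows). The 11 clock genes together had 0, 13 and 27 reads against 25, 22 and 33, and as a share of gene reads the quadruple mutant was higher in all 3 libraries (exact two-sided permutation test, p = 0.1). The morning gene LHY (AT1G01060) had 0, 0 and 4 against 12, 4 and 11 (log2 fold change 3.03, SE 1.34, edgeR adjusted p = 0.528, unadjusted 0.0391). The separation rested on this gene: the other 10 clock genes, summed after the values were seen, had 0, 13 and 23 reads against 13, 18 and 22, and as a share of gene reads the sets then overlapped (exact two-sided permutation test, p = 0.2). ELF3 (AT2G25930), a component of the evening complex, had 0, 1 and 6 reads against 0 in each quadruple mutant library. Whether time of harvest or growth conditions have a part in any result above was not tested.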

How the data were processed

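RNA-seq libraries of 12 seedlings were available, and 6 of them enter the comparison. Per the labels and the study's methods, the authors trimmed the reads with Trim Galore 0.6.7, aligned them to TAIR10 with STAR 2.7.11a, kept uniquely mapped reads and counted them with HTSeq 0.13.5. They deposited raw read counts, not normalized, in 1 gene table and 1 TE table per library. Summary lines of the counter were left out of library sizes and tests. The strand option and the annotation release of the TE table are not stated in the sources used here, and whole-genome bisulfite data were not analysed here.

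Libraries were grouped by sample title. The table names give another genotype for 9 of the 12, and both namings are stated. Gene counts were fitted with edgeR 4.0.16 under R 4.3.3 (filterByExpr, TMM, glmQLFit and glmQLFTest) in 1 fit of 4 sets, so that the other 6 libraries share the estimate of the spread. TE counts were scaled by the gene tables' library sizes and TMM factors. Benjamini-Hochberg adjustment covered the 4461 genes or the 753 TEs tested, and calls took an adjusted p below 0.05 and a log2 fold change of 1 or more in either direction. SE is the size of the log2 fold change divided by the square root of F. Folds against a set at 0 divide the mean CPM of the other set by the level of 3 reads over the set at 0. They leave out the spread of the other set and are not lower bounds. The tests were checked on simulated counts.

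The features named are, in each direction, up to 15 genes and 20 TEs called without overlap, taken by the size of the log2 fold change, and the called features with overlap. The other 2 higher genes, AT5G59662 and AT1G68110, and uncalled list members with values, other than the targeted genes, were chosen after their values were seen. The members, the lists and the tests were chosen with earlier results of these data known. Positions, gene classes and sequences are from RefSeq TAIR10.1, which holds 34879 of the 35651 gene identifiers, and copies were searched with BLAST+ 2.17.0 (at least 90% identity over 80% of the length). Alternatives were DESeq2 1.42.0, edgeR with DESeq2 size factors, no low-count filter, a fit of the 6 libraries alone, the replicate number as a block, library sizes without organelle genes, TE library sizes from TE counts, no fold-change cutoff and each library left out in turn. DESeq2 on only the 6 libraries was added after seeing the data.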

Additional observations from a re-analysis of the deposited data

How the results depend on the processing

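Scaling by DESeq2 size factors, leaving organelle genes out of the library sizes and dropping the fold-change cutoff each gave the same counts, 17 higher and 2 lower genes and 17 higher and 1 lower TEs. DESeq2 called 28 higher and 4 lower genes and 28 higher and 3 lower TEs, and on the 6 libraries alone 35 and 9 genes and 23 and 3 TEs. With no filter on low counts edgeR called 72 and 22 genes and 37 and 4 TEs, and with only the 6 libraries 27 and 3 genes and 15 and 0 TEs, of which 16 higher genes and 14 higher TEs were shared with those reported. AT4G14100, AT2G05015, AT4TE18500, AT3TE73260, AT5TE48720 and AT1TE63795 did not pass the low-count filter with only the 6 libraries and were not tested there. TE library sizes from TE counts gave 24 higher and 2 lower TEs. With 1 library left out, counts ran over 7 to 25 higher and 0 to 4 lower genes, 12 to 19 higher and 0 to 2 lower TEs, and a difference in TE reads per 100 gene reads of -1.33 to 1.51, which was 0.141 without organelle genes in the gene reads. More genes passed the filter in these fits than in the fit of all 12 libraries. Of the higher features 7 genes and 10 TEs were called in all 12 of them, and no called feature changed direction in any setting that tested it. The cause of the other differences was not tested.

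With the replicate number as a block, edgeR called 20 higher and 2 lower genes and 17 higher and 1 lower TEs, AT1TE89775 no longer among them. Deviations from the set means correlated between same-numbered libraries by -0.0450 to 0.0658 for genes and -0.0685 to 0.0253 for TEs, and the numbers were therefore not used to pair libraries.

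With 450869 to 750749 gene reads per library, most genes had too few reads to be tested.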
